A study of Ovis aries with 8 samples.

Results

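Glucagon (GCG) and genes known to mark the pancreatic alpha cell were followed across the islets of 8 near-term sheep fetuses. The members were GCG, IRX1, IRX2, TTR, TM4SF4, LOXL4, GC and SLC7A2, each taken as the row with exactly that gene name. Rows were found for 7 of the 8, among 25000 rows in all, and IRX2 was not analysed here. All 7 passed the filter on low values, a mean of at least 1 FPKM over the 8 animals, which left 13252 rows for testing. FPKM counts sequenced fragments by transcript length and by library size, so levels of different genes can be ordered.

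The fetuses were singletons of Columbia-Rambouillet ewes. The norepinephrine group (4 fetuses, 3 male and 1 female, gestational age 137 to 139 days, weight 2.8 to 3.7 kg) received norepinephrine bitartrate into a vein for 7 days, at 1 µg/min on day 1, 2 µg/min on days 2 to 4 and 4 µg/min on days 5 to 7. The control group (4 fetuses, 3 male and 1 female, 139 to 140 days, 3.6 to 5 kg) received only the diluent, ascorbic acid in saline. RNA came from islets picked by hand, and each library was made from 1 fetus.

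Alpha cells make proglucagon, which the convertase PCSK2 cuts to glucagon, the hormone that raises hepatic glucose output and amino acid use. Their identity rests on transcription factors, among them the Iroquois factors IRX1 and IRX2, and catecholamines are known to promote glucagon release while they restrain insulin. In a piece of islet RNA, a larger number of alpha cells and more transcript per alpha cell cannot be told apart. Transcripts that come only from alpha cells, at a fixed amount per cell, would move together from animal to animal.

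Libraries differed by how the animal number begins, with 09 or with 10, whose meaning the labels do not give. The summed FPKM of a library was 981583 to 1112624 for number 09 (control 2 and norepinephrine 1, 3 and 4) and 768021 to 796149 for number 10 (controls 1, 3 and 4 and norepinephrine 2). With treatment in the model, limma called 16.5% of the 13252 genes between the 2 sets (adjusted p, threshold 0.05). The number prefix and the treatment overlap in part, so values within the number groups are given beside the results. Depth in reads is unknown, and no counting interval was computed.

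GCG was by far the most abundant member and ranked at place 76 of the 25000 rows by mean FPKM. It lies on chromosome 2 at 146544014 to 146551954 (build Oar_v3.1), and no other row overlaps it. GCG stood at 2434, 1063, 703 and 1191 FPKM in controls 1 to 4, and at 861, 2286, 1039 and 4108 FPKM in norepinephrine animals 1 to 4. The levels spanned a ratio of 5.85 between norepinephrine 4 and control 3. Control 1, norepinephrine 2 and norepinephrine 4 were high, the other 5 animals lay between 703 and 1191, and the groups overlapped throughout.

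The secreted and surface proteins came next. TM4SF4, a tetraspanin-like membrane protein (chromosome 1, 236691318 to 236719042), stood at 424, 430, 230 and 346 FPKM in controls and at 262, 585, 738 and 429 FPKM with norepinephrine. It varied least of the 7, with a coefficient of variation of 38.7% over the 8 animals against 68.0% for GCG. TTR, transthyretin, which carries thyroid hormone and the retinol-binding protein in blood (chromosome 23, 25838407 to 25847665), stood at 301, 347, 115 and 123 FPKM in controls. With norepinephrine TTR stood at 201, 351, 146 and 580 FPKM. The highest animal of TTR, norepinephrine 4, was that of GCG, whereas TM4SF4 was highest in norepinephrine 3.

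GC, the vitamin D-binding protein (chromosome 6, 86619919 to 86657661), stood at 15.9, 27.0, 11.6 and 34.0 FPKM in controls and at 85.4, 38.3, 48.1 and 20.1 FPKM with norepinephrine. The file lists 1 unnamed row at the same locus, at 0 in every animal. Of the norepinephrine animals, 3 lay above the highest control and norepinephrine 4 lay within the controls. Norepinephrine 4, with the most GCG, thus had the least GC of its group.

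SLC7A2, a transporter of cationic amino acids such as arginine (chromosome 26, 18440034 to 18463496), stood at 16.8, 6.90, 11.5 and 14.9 FPKM in controls. With norepinephrine it stood at 10.8, 33.1, 11.1 and 19.1 FPKM. LOXL4, a secreted lysyl oxidase-like enzyme of the matrix (chromosome 22, 18555348 to 18575996), stood at 4.25, 14.9, 9.97 and 12.6 FPKM in controls and at 3.81, 5.02, 14.5 and 10.2 FPKM with norepinephrine. Both genes overlapped between the groups, and the lowest LOXL4 values came from 1 animal of each group, norepinephrine 1 and control 1.

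IRX1, the only Iroquois factor of the set with a row, is listed at a locus of 471 bp (chromosome 16, 69236270 to 69236740), so its level rests on a short stretch of sequence. It stood at 9.37, 1.32, 2.50 and 1.49 FPKM in controls and at 0.986, 5.28, 2.01 and 8.15 FPKM with norepinephrine. Its spread was the widest of the 7, with a coefficient of variation of 84.9%. Control 1, norepinephrine 4 and norepinephrine 2 were the 3 highest, as for GCG.

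**Figure D1:**
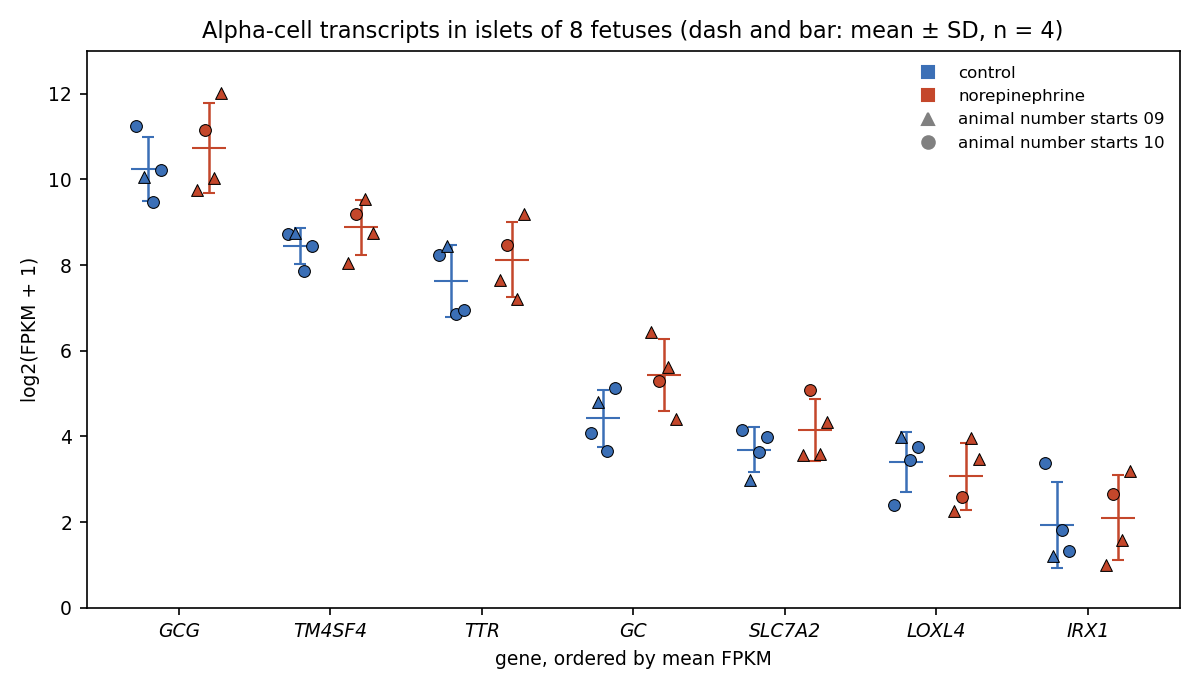
Level of each gene as log2(FPKM + 1) on the vertical axis, 1 point per fetus, with the mean ± SD of each group of 4 (dash and bar); colour gives the treatment and shape how the animal number begins. Values of the groups overlap in all 7 genes, and GC is the gene in which 3 norepinephrine animals lie above every control.

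The order of the levels was stable at its top and not at its bottom. GCG exceeded TM4SF4 in 8 of 8 animals, by a ratio of 1.41 to 9.57, and TTR exceeded GC in 8 of 8. TM4SF4 exceeded TTR in 7 of 8 animals, with the reverse in norepinephrine 4, and GC exceeded SLC7A2 in 7 of 8. SLC7A2 against LOXL4, and LOXL4 against IRX1, held in 6 of 8 animals each, so these neighbours did not part beyond their spread between animals.

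The first comparison asked whether these transcripts differed after norepinephrine. None of the 7 passed: limma on log2(FPKM + 1), two-sided and adjusted over 13252 genes, called 0 members at an adjusted p under 0.05, where 0% of all genes were called. At an unadjusted p under 0.05 there was 1 of 7, GC, against 7.36% of all genes. The groups were free of overlap in 0 of 7, against 4.23% of all genes. Mean log2 levels were higher with norepinephrine in 6 of 7, against 52.6% of all genes, and the median log2 difference was 0.45 for the members and 0.017 over all genes.

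GC had the largest difference for the groups alone, 48.0 ± 27.5 FPKM in infused fetuses against 22.1 ± 10.2 in control fetuses (SD, n = 4 each). On the log2 scale this was 1.02 (SE 0.44, limma adjusted p = 0.666), and the exact two-sided permutation test gave p = 0.114, where 0.0286 is the smallest that 4 against 4 animals allow. In the 09 animals GC differed by 0.67 and in the 10 animals by 1.01, each with 1 animal in an arm. With the prefix in the model it was 0.84 (limma adjusted p = 0.596), below the 1.01 of SLC7A2 in that model.

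GCG averaged 2073 ± 1497 FPKM in infused fetuses against 1348 ± 753 in control fetuses (SD, n = 4 each), a log2 difference of 0.49 with a 95% interval from -0.72 to 1.69. The interval holds changes from a fall to more than a doubling on the log2 scale, so the design did not resolve the direction. Leaving out 1 animal moved the GCG difference between 0.07 (without norepinephrine 4) and 0.82 (without control 1). With gestational age as a covariate, which was lower in the infused group, GCG differed by -0.097 and TTR by -0.55, so both turned direction. TTR, at 320 ± 194 against 221 ± 120 FPKM, had a difference of 0.50, or -0.43 in the 09 animals and 1.11 in the 10 animals. The test of that contrast between the number groups did not pass (limma interaction, adjusted p = 0.863), and the TTR difference lay between 0.15 (without norepinephrine 4) and 0.81 (without norepinephrine 3).

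TM4SF4 averaged 503 ± 204 FPKM in infused fetuses against 358 ± 93.3 in control fetuses, a difference of 0.43 that was 0.020 in the 09 animals and 0.85 in the 10 animals. It lay between 0.22 (without norepinephrine 3) and 0.71 (without norepinephrine 1). IRX1 stood at 4.11 ± 3.26 and 3.67 ± 3.83 FPKM, a difference of 0.18 whose sign turned when any of 4 animals was left out (controls 2 and 4, norepinephrine 2 and 4), down to -0.18. LOXL4 was the member with a lower mean, 8.38 ± 4.94 against 10.4 ± 4.58 FPKM (log2 -0.33, SE 0.44), and its difference lay between -0.66 (without control 1) and -0.058 (without norepinephrine 1). Exact permutation p for the members other than GC ran from 0.257 to 0.857.

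SLC7A2 was the 1 member of 7 called between the number groups, where 16.5% of all genes were called. It was higher in the 10 animals than in the 09 animals by 1.10 on the log2 scale with treatment in the model (limma adjusted p = 0.0234). Its treatment difference was 0.45 (SE 0.37) for the groups alone and 1.01 (SE 0.24) with the prefix in the model, which did not pass over all genes (limma adjusted p = 0.309). With the prefix in the model 0 of 7 members were called, against 0.00755% of all genes. Among the 09 animals the 3 norepinephrine values (10.8, 11.1 and 19.1 FPKM) lay above the single control at 6.90. Among the 10 animals the single norepinephrine value of 33.1 lay above controls at 11.5 to 16.8. SLC7A2 was the 1 member of 7 with this order in both number groups, an order found in 9.72% of all genes. The pooled difference was 0.14 without norepinephrine 2 and 0.22 without control 2.

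**Figure D2:**
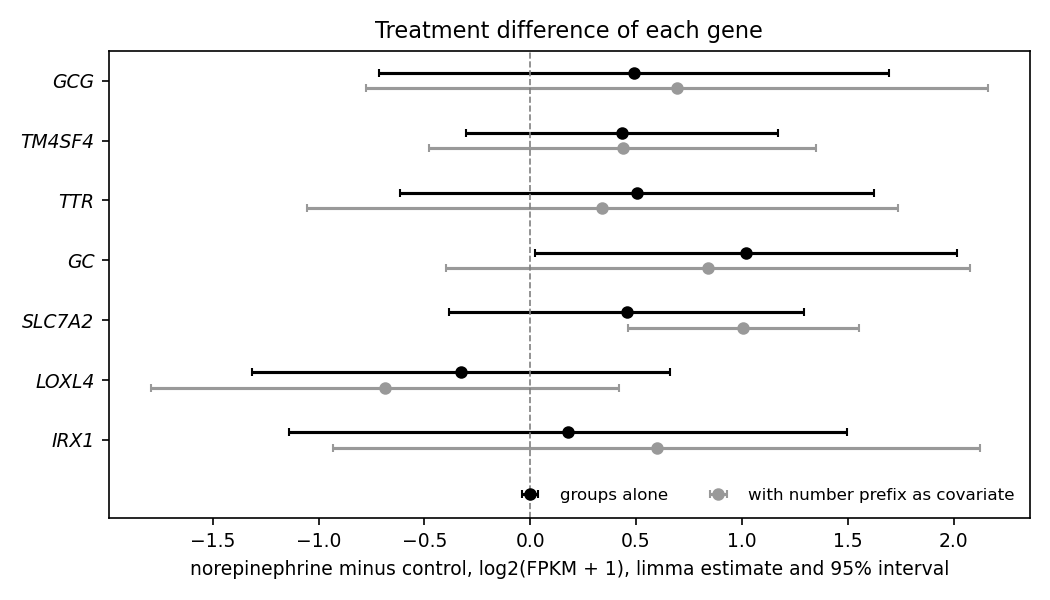
Treatment difference of each gene (horizontal axis, norepinephrine minus control on log2(FPKM + 1)) as the limma estimate with its 95% interval, for the groups alone (black) and with the number prefix as a covariate (grey). The intervals of GCG, TM4SF4, TTR, LOXL4 and IRX1 span 0 in both models. GC spans it with the prefix in the model, and SLC7A2 for the groups alone.

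Acinar and duct markers had higher levels in some norepinephrine animals and are given beside this comparison. Summed FPKM of the 11 listed acinar markers ran from 127 to 180 in controls and from 139 to 1078 with norepinephrine, where PRSS1, CELA2A, CTRB1, AMY2A and BHLHA15 are among those with no row of that name. All 8 tested acinar markers and 3 of 4 duct markers had higher means with norepinephrine, and 0 passed over all genes. The duct markers summed to 103 to 192 FPKM in controls and to 163 to 432 with norepinephrine. Their part in the differences of the members was not tested beyond a fit with the acinar mean as a covariate, in which 0 members were called. In that fit the difference was 0.95 for GCG, 0.32 for TM4SF4, 0.85 for TTR, 0.71 for GC, 1.08 for SLC7A2, -0.75 for LOXL4 and 0.71 for IRX1. The liver also makes TTR and GC, and its 9 listed markers summed to 97.1 to 174 FPKM in controls and to 154 to 217 with norepinephrine. Most of this was SERPINA1 at a mean of 129 FPKM and APOB at 28.8, while albumin (ALB) had a mean of 0.222 FPKM, AFP of 0.0345, and CYP2E1 was listed at 0 in all animals. APOB averaged 38.0 ± 12.4 FPKM in control fetuses and 19.7 ± 11.8 in infused fetuses.

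The second comparison asked whether the members moved together from animal to animal, as transcripts of one cell type would if its share varied. IRX1, TTR and SLC7A2 had the highest correlations with GCG, TM4SF4 a lower one, and GC and LOXL4 had values below 0, and no relation passed after adjustment. Of the 21 pairs of members 12 had a positive Pearson r on log2(FPKM + 1), with a median of 0.23 and a range from -0.55 to 0.87. Exact permutation p was under 0.05 for 2 pairs, GCG with IRX1 and GCG with TTR, and 0 of 21 passed with Benjamini-Hochberg adjustment over the pairs (lowest adjusted p = 0.180).

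GCG and IRX1 had r = 0.87 (exact permutation p = 0.00977, adjusted p = 0.180) and Spearman rho 0.67 (exact permutation p = 0.0831). Without the 2 animals farthest from the GCG median, control 1 and norepinephrine 4, r was 0.69. With the means of the treatment groups taken out r was 0.88, and with those of the number groups it was 0.90. The correlation was thus as large within treatment groups and within number groups as over all animals.

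GCG and TTR had r = 0.81 (exact permutation p = 0.0172, adjusted p = 0.180) and rho 0.74 (exact permutation p = 0.0458), with r = 0.62 without those 2 animals and 0.87 within number groups. GCG and SLC7A2 had r = 0.69 (exact permutation p = 0.0563, adjusted p = 0.299) and rho 0.71 (exact permutation p = 0.0576), with r = 0.80 without those 2 animals and 0.78 within number groups. SLC7A2 and IRX1 had r = 0.68 and rho 0.81 (exact permutation p = 0.0569 and 0.0218). TTR and SLC7A2 had r = 0.35 with each other (exact permutation p = 0.408).

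GC had negative values with GCG and IRX1. Its r was -0.24 with GCG (exact permutation p = 0.561) and -0.55 with IRX1 (exact permutation p = 0.162), and within treatment groups -0.56 and -0.77. LOXL4 had r = -0.23 with GCG and -0.47 with SLC7A2 (exact permutation p = 0.554 and 0.252). No correlation was computed inside a number group, since each holds 4 animals.

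**Figure D3:**
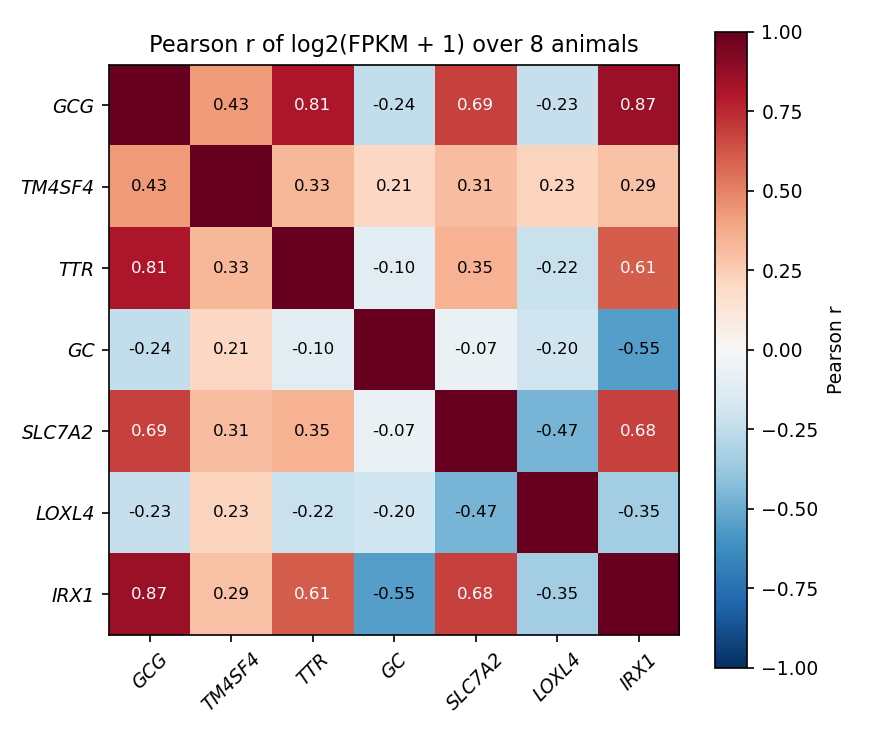
Pearson r of log2(FPKM + 1) over 8 animals for each of the 21 pairs of genes, red above 0 and blue below. GCG, IRX1, TTR and SLC7A2 are positive with one another, while GC and LOXL4 are negative with GCG, IRX1 and SLC7A2.

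The same 3 animals, control 1, norepinephrine 2 and norepinephrine 4, held the 3 highest values of GCG, IRX1 and SLC7A2. They come from both treatment groups and both number groups. Among all 13251 other tested genes this set of 3 highest animals was found in 2.45%, and among the 6 other members in 2. By Pearson r with GCG, IRX1 ranked at place 50 of 13251 genes, TTR at 130, SLC7A2 at 458 and TM4SF4 at 2000. GC at 10196 and LOXL4 at 10101 lay in the lower part of that order.

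The size of the joint movement was read as a slope, in log2 units of a gene per log2 unit of GCG, where transcripts confined to the same cells at a fixed amount per cell would give 1. Limma, fitted over 13251 genes, called 0 of 6 members at an adjusted p under 0.05, where 0% of all genes were called. At an unadjusted p under 0.05 there were 3 of 6 members with a positive slope, IRX1, TTR and SLC7A2, against 2.41% of all genes. Slopes were above 0 for 4 of 6 members, against 53.6% of all genes. The slope of IRX1 was 0.92 (95% interval 0.48 to 1.35, adjusted p = 0.591) and that of TTR 0.77 (0.34 to 1.21, adjusted p = 0.735), so both intervals held 1. At the low level of IRX1 its slope depended on the pseudocount, with 1.16 at a pseudocount of 0.1 and 0.50 at 5.

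SLC7A2 had a slope of 0.49 (0.080 to 0.91) and TM4SF4 of 0.27 (-0.18 to 0.72), with intervals below 1. These 2 slopes depended on the animals kept. Without control 1 and norepinephrine 4 they were 0.97 and 0.72, without norepinephrine 2 that of SLC7A2 was 0.36, and without control 3 that of TM4SF4 was 0.12. GC had a slope of -0.25 (-0.98 to 0.49) and LOXL4 of -0.19 (-0.79 to 0.42). The GC slope turned to 0.38 without control 1 and norepinephrine 4, and it was -0.67 without control 3 and -0.012 without norepinephrine 1. The LOXL4 slope was -0.52 without norepinephrine 4 and -0.060 without control 1. Error in GCG itself, and transcript from other cells, lower such a slope, and their size was not measured here.

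Other genes of the alpha cell, from lists that do not hold the members, were followed in the same animals. CRYBA2, a crystallin known as an alpha-cell marker, was nearest to GCG of the known markers. It was named for its high r with GCG, so the values below that relate it to GCG are a description. It stood at 28.1, 10.6, 4.38 and 6.27 FPKM in controls and at 8.34, 23.7, 7.35 and 32.8 FPKM with norepinephrine, with the same 3 highest animals as GCG. CRYBA2 had r = 0.95 with GCG and rho 0.83 (exact permutation p = 0.00117 and 0.0154), with adjusted p = 0.135 over the 116 genes compared with GCG in this way. Without control 1 and norepinephrine 4, r was 0.89, and the slope was 1.08 (0.77 to 1.40, limma adjusted p = 0.320).

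Among the alpha-cell transcription factors, FEV and MEIS2 shared the 3 highest animals of GCG, and both were named after their values were seen. FEV, a factor of endocrine precursors and serotonin cells, stood at 7.98, 2.09, 1.49 and 1.84 FPKM in controls and at 2.27, 11.1, 1.67 and 5.66 FPKM with norepinephrine. MEIS2, a homeobox factor, stood at 20.4, 5.61, 4.32 and 7.45 FPKM in controls and at 6.18, 34.9, 13.6 and 18.3 FPKM with norepinephrine. In both genes norepinephrine 2 was the highest animal, where GCG was highest in norepinephrine 4. FEV had a slope on GCG of 0.84 (0.38 to 1.30, limma adjusted p = 0.716) and MEIS2 of 0.90 (0.40 to 1.40, limma adjusted p = 0.735). A row of another RNA overlaps MEIS2.

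SMARCA1 and PAX6, abundant factors of that list, had slopes with intervals that held 0 and lay below 1. Their r with GCG was -0.53 for SMARCA1 and 0.090 for PAX6. PAX6, a factor of all islet cells, had a slope of 0.03 (-0.27 to 0.33), and SMARCA1, a chromatin remodeller, of -0.23 (-0.53 to 0.07). PAX6 had a mean of 120 ± 31.2 FPKM in infused fetuses against 102 ± 17.7 in control fetuses (log2 0.21, limma adjusted p = 0.818). The list as a whole had 0 of 13 genes called between treatments, 10 with higher means and a median log2 difference of 0.38.

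**Figure D4:**
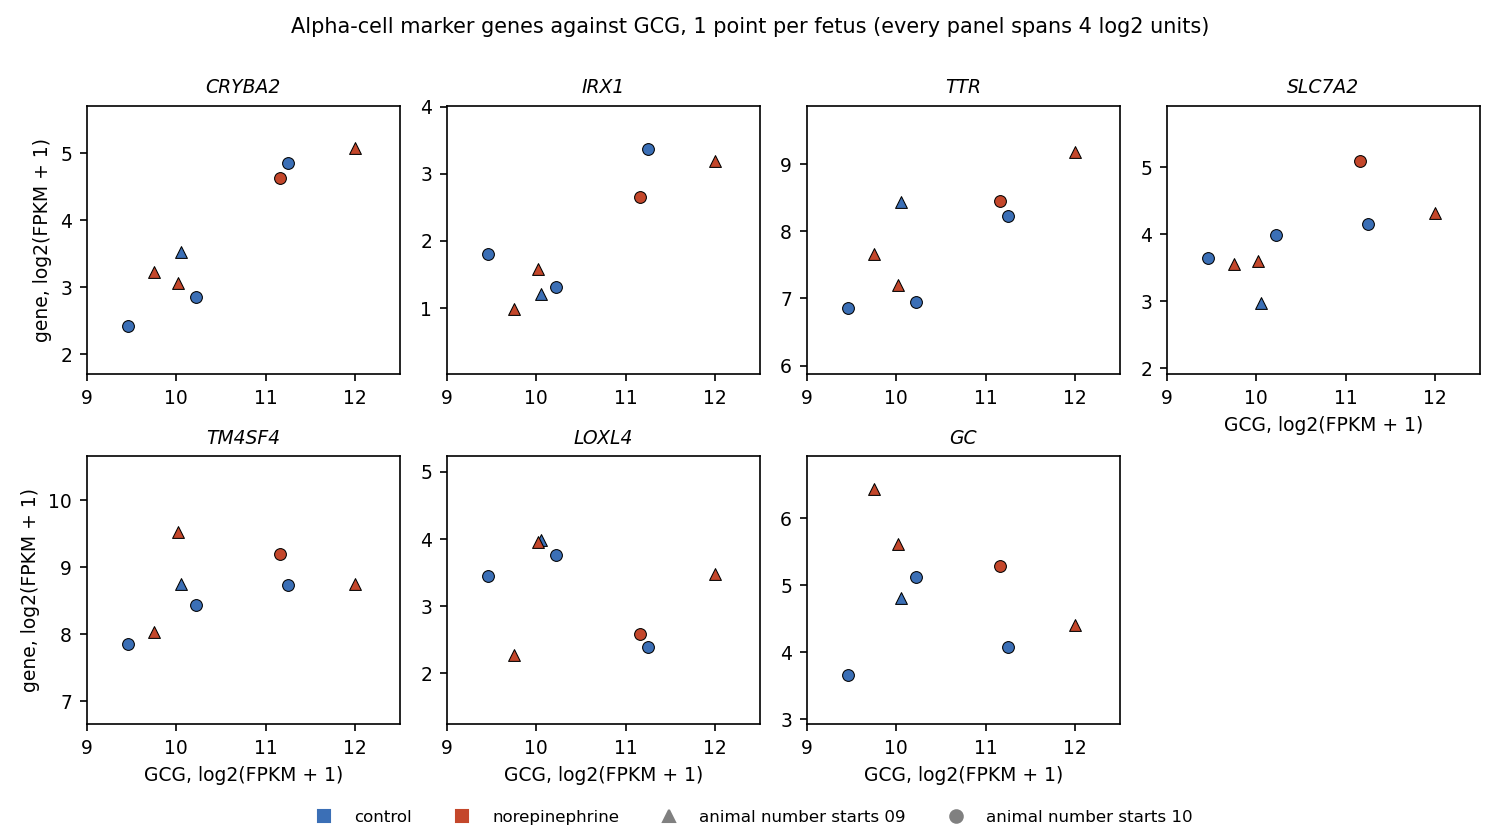
Each of 7 alpha-cell marker genes (vertical axis, log2(FPKM + 1), every panel 4 log2 units high) against GCG (horizontal axis, log2(FPKM + 1)), 1 point per fetus, with colour for treatment and shape for the animal number. In CRYBA2, IRX1 and SLC7A2 the 3 animals with the most GCG are also the 3 highest. In GC the norepinephrine animal with the most GCG is the lowest of its group. CRYBA2 was chosen for its high r with GCG.

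**Figure D5:**
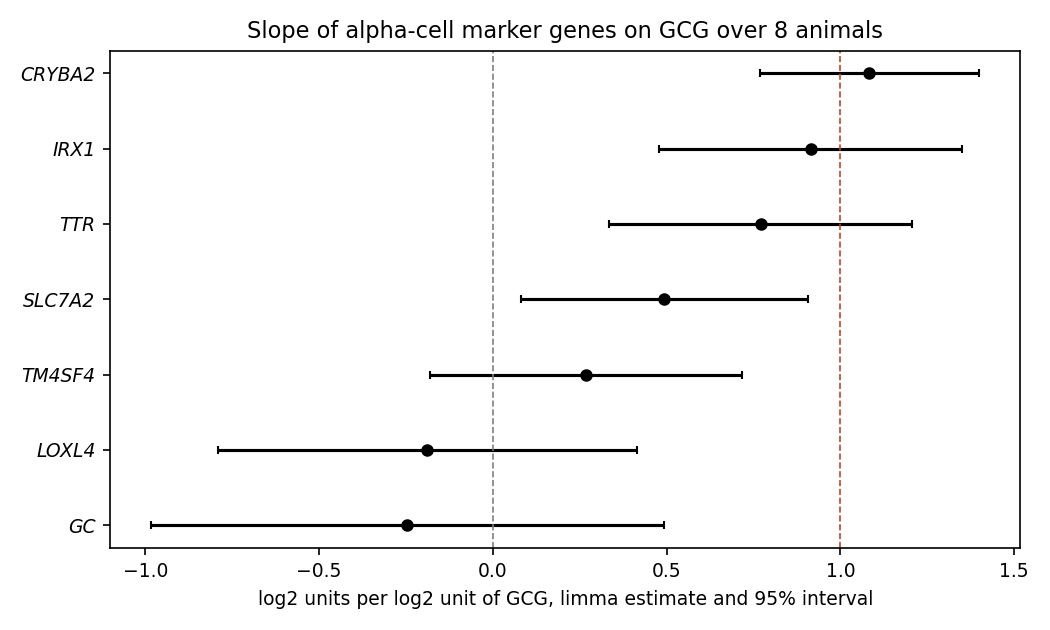
Slope of the same 7 genes on GCG over 8 animals (horizontal axis, log2 units per log2 unit of GCG), as the limma estimate with its 95% interval and dashed lines at 0 and 1. The intervals of CRYBA2, IRX1 and TTR hold 1 and not 0, and those of TM4SF4, LOXL4 and GC hold 0 and not 1. CRYBA2 was chosen for its high r with GCG.

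Among 16 tested genes of a further list of alpha-cell markers, 0 were called between treatments, and 9 had higher means (median log2 difference 0.14). PCSK2, the convertase that frees glucagon, averaged 530 ± 74.8 FPKM in infused fetuses against 459 ± 164 in control fetuses, and 2 unnamed rows overlap it. SERPINA1, the protease inhibitor alpha-1 antitrypsin, stood at 170 ± 35.2 and 88.4 ± 23.4 FPKM without overlap of the groups (log2 0.95, SE 0.23, limma adjusted p = 0.492). It is also counted among the liver markers above. SERPINA1 was the 1 gene of these 16 without overlap, against 4.23% of all genes. DPP4, the peptidase that inactivates incretins, stood at 80.8 ± 21.3 and 96.6 ± 8.13 FPKM.

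Genes of hormone maturation and the secretory granule had 0 of 12 called, 9 with higher means and a median of 0.18. PCSK1 of this list is also among the beta-cell markers, and PCSK2 also among the alpha-cell markers. CHGA averaged 4853 ± 830 FPKM in infused fetuses against 3891 ± 1555 in control fetuses, and the granins SCG5 and SCG3 had slopes on GCG of -0.06 and -0.02. The median r with GCG was 0.022 over the granule list, 0.034 over all tested genes and 0.56 over the 6 other members. For the 13 tested alpha-cell transcription factors it was 0.090, and for the 16 further alpha-cell markers 0.40. Within the granule list r ran from -0.77 (PCSK1) to 0.81 (CHGB). CHGB, a granin named after its values were seen, was the 1 gene of the granule list with the 3 highest animals of GCG. The summed level of the list was highest in control 2 and lowest in control 1, an animal with high GCG. Control 2 also had the highest summed FPKM of all libraries (1112624) and control 1 the lowest (768021).

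Glucagon receptors and the amino acid genes of the liver to alpha-cell loop had 0 of 13 called, 7 with higher means. CASR, the calcium-sensing receptor, averaged 81.2 ± 17.3 FPKM in infused fetuses against 122 ± 10.3 in control fetuses without overlap (log2 -0.61, SE 0.17, limma adjusted p = 0.523). SLC7A8, an amino acid exchanger, stood at 37.7 ± 6.56 and 61.6 ± 14.6 FPKM, also without overlap, although 2 rows of small RNA overlap it (log2 -0.68, limma adjusted p = 0.523). CASR and SLC7A8 were the 2 of 13 genes without overlap of the groups, against 4.23% of all genes. SLC3A2, the heavy chain shared by several such exchangers, stood at 223 ± 56.0 and 188 ± 48.6 FPKM. These receptors and transporters thus held genes with lower and with higher means, and the cationic transporter SLC7A2 among the members was on the higher side.

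Partners of the carrier proteins TTR and GC had 0 of 9 called. RBP4, the retinol-binding protein that TTR carries, averaged 4827 ± 1752 FPKM in infused fetuses against 6283 ± 2150 in control fetuses, with a slope on GCG of -0.01 where TTR had 0.77. THRA, a thyroid hormone receptor, stood at 24.0 ± 3.52 and 14.2 ± 3.13 FPKM without overlap (log2 0.73, limma adjusted p = 0.495), but NR1D1 overlaps its locus and the value is uncertain. THRA was the 1 of 9 genes without overlap of the groups, against 4.23% of all genes. DIO1, a deiodinase, differed by -0.010 on the log2 scale (SE 0.61).

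Markers of other cells were set against GCG in the same way. All 7 tested stromal markers had a positive r with GCG, with a median of 0.29. Positive r was found in 4 of 7 endothelial, 3 of 5 leukocyte and 2 of 2 Schwann markers (medians 0.063, 0.23 and 0.26). It was found in 2 of 4 duct, 2 of 8 acinar and 1 of 3 hepatocyte markers (medians 0.13, -0.15 and -0.17). CD68 of the leukocyte list and CELA1 of the acinar list, named after their values were seen, each had r = 0.70. Of 10 tested beta-cell markers 3 had a positive r with GCG, with a median of -0.43, and none shared its 3 highest animals. The mean of the beta-cell list had r = -0.60 with GCG (rho -0.57, exact permutation p = 0.116 and 0.151) and 0.63 with GC (rho 0.69, exact permutation p = 0.0915 and 0.0694). Adjusted over the 35 relations of members with such lists, both exact permutation values became 0.794. INS and MAFA have no row of that name, and IAPP is listed at 0 in all animals. Of 5 tested delta-cell markers 1 had a positive r with GCG, with a median of -0.28, and GHSR, the ghrelin receptor, had the lowest at -0.80 (rho -0.52, exact permutation p = 0.0143 and 0.197, adjusted p = 0.181). That 1 marker was SST, the somatostatin of delta cells. It did share the 3 highest animals of GCG, with r = 0.87 (rho 0.79, exact permutation p = 0.00533 and 0.0279, adjusted p = 0.181), and SST and GHSR were named after their values were seen.

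The 8 named genes with the highest Pearson r to GCG over the 8 animals, outside the members, were IQCK (0.96), CRYBA2 (0.95), SULT2B1 (0.93), DDAH2 (0.92), ZFPM2 (0.92), WISP3 (0.92), NLRX1 (0.92) and GNPTAB (0.92). They were chosen for this value, so it is a description. DDAH2, a hydrolase of methylated arginine, was the most abundant at a mean of 32.5 FPKM, with 57.3 in norepinephrine 4 and 17.7 in control 3. SULT2B1, a sulfotransferase of sterols, reached 8.82 FPKM in norepinephrine 4 and lay at 0.825 in control 4. IQCK shares its locus with KNOP1, and 0 of these genes had a slope on GCG that passed over all genes (lowest limma adjusted p = 0.320).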

How the data were processed

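Per the labels' protocols, messenger RNA was selected and TruSeq libraries were sequenced as paired reads of 100 bp. The submitters' processing notes list TopHat2 2.0.1, Cufflinks 2.1.1, Cuffdiff and the build Oar_v3.1. The sources used here do not give the annotation, strand or filters. The authors deposited 1 FPKM value per gene and animal, and no counts were used here (0 sample columns were left out). Locus starts were raised by 1, because U6 rows most often span 107 by subtraction, the usual length of that RNA.

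Group differences and slopes on GCG were fitted on log2(FPKM + 1) (change in low genes is understated) with limma 3.58.1 in R 4.3.3 (eBayes with trend, two-sided, Benjamini-Hochberg over all tested rows, threshold 0.05). Correlations used exact permutation in Python 3.11.15; with 7 rows there were 21 pairs instead of 28. The limma fits were tested on simulated data. The members and lists were chosen with earlier results of these data known. Named genes were the members, the 3 most abundant genes of each list (or those past the threshold) and the 8 nearest to GCG; exceptions are marked, and some list genes are not reported here. Each replicate was a separate fetus. Alternatives were other pseudocounts, filters, scalings and covariates, and leaving out each animal.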

Additional observations from a re-analysis of the deposited data

How the results depend on the processing

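In none of the 21 alternatives to the treatment comparison, and in none of the 23 to the slopes on GCG, did a member pass over all genes. Of 283 recomputed member estimates 276 kept their direction and 7 reversed. With gestational age as a covariate the GCG difference was -0.097 and the TTR difference -0.55; the cause was not tested. The IRX1 difference reversed without 1 animal in 4 cases, to -0.18 to -0.0039 (over all 8 such fits -0.18 to 0.66), and the GC slope was 0.38 without the 2 animals farthest from the GCG median. Over all genes the count of called treatment differences was 1 with equal summed FPKM and 1 with the prefix as a covariate (NNAT both times, named after its values were seen). It ran from 0 to 2 when 1 animal was left out: without norepinephrine 1 the calls were TTC28-AS1_3 and 1 unnamed row, and without norepinephrine 3 the call was a U1 row. The count of called slopes was 1 with gestational age as a covariate (BHMT). Filters in these fits were applied to the animals kept.

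Equal summed FPKM moved the median difference of all genes from 0.017 to -0.12 and the share of genes with higher means from 52.6% to 30.5%, and scaling by pan-endocrine genes moved them to -0.19 and 21.8%. Under both, 6 of 7 members stayed higher and LOXL4 lower, with GCG at 0.33 and 0.25 and GC at 0.87 and 0.79. With a mean of at least 5 FPKM IRX1 was not tested. The replicate numbers belong to different fetuses (correlations of deviations from -0.38 to 0.093, and replicate 4 alone correlated best with its own number); with the replicate block 0 genes and 0 members were called, and GCG differed by 0.49. Depth in reads is unknown, which leaves the precision of IRX1, at a few FPKM, undetermined.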
